A study of Homo sapiens with 21 samples.

Results

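The genes described are 10 members of the interleukin 1 (IL1) and interleukin 6 (IL6) cytokine families and their receptors: IL1A, IL1B, IL1RN, IL1R1, IL33, IL18, IL6, IL6ST, IL11 and LIF. They were chosen by name, as the rows whose gene symbol equals one of these 10, and all 10 were found among the 16383 genes listed in the table. A gene entered the tests when its normalised read count was at least 10 in at least 3 libraries. This left 11579 genes, among them 9 of the 10 members, with IL1RN below the limit. IL1A and IL33 reached the limit only through irradiated libraries, so their difference from proliferating cells was partly fixed by the filter. IL33 also had no library at 10 after CDK6 or dual knockdown, so its falls there were partly fixed too.

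RNA was sequenced from IMR90, a wild-type line of human fetal lung fibroblasts, in 7 groups of 3 libraries. The proliferating group was not irradiated and received no siRNA. The other 6 groups were made senescent by ionising radiation, given 5 nM of siRNA on day 4 and again on day 7, and collected on day 10. These carried non-targeting siRNA NT3, non-targeting siRNA NT4, siRNA against CCND1, siRNA against CDK4, siRNA against CDK6, or siRNAs against CDK4 and CDK6 together (dual knockdown). CCND1 encodes cyclin D1, and CDK4 and CDK6 are the kinases it activates at the G1 to S transition. No group was irradiated without siRNA, so the effects of irradiation and transfection cannot be told apart. Each target had 1 named siRNA whose sequence is not used here, and NT3 and NT4 were kept as separate controls throughout.

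IL1 alpha and IL1 beta signal through the receptor IL1R1, which recruits the adaptor MYD88 and IRAK kinases and activates the transcription factor NF-kB. The receptor antagonist, the product of IL1RN, occupies the same receptor without signalling. IL33 and IL18 belong to the same family and have receptors of their own. IL6, IL11 and LIF each bind a specific receptor chain and then signal through the shared chain gp130, encoded by IL6ST, to JAK kinases and STAT3. In senescent fibroblasts, membrane-bound IL1 alpha is a known upstream driver of the secretory phenotype, of which IL6 is a classical product.

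Promoter windows were available from RefSeq (GRCh38.p14) for 8 of the 10 members, not for IL18 and LIF. The 250 bases before the start site of the reference transcript are shown for IL6, IL1B, IL1A and IL11, the 4 members that were lower than both controls in CDK6 knockdown and in dual knockdown (below). Capitals mark matches, on either strand, to a strict NF-kB motif (GGGA, any base, TT, any base, CC), an AP-1 motif (TGANTCA) or a C/EBP motif (TTGCNNAA), the binding sites of factors long studied at cytokine promoters.
IL6: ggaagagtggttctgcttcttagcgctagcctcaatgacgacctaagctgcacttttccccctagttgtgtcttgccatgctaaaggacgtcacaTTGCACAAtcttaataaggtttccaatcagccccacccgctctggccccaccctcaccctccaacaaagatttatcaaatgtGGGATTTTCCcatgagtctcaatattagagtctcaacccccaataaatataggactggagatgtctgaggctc
IL1B: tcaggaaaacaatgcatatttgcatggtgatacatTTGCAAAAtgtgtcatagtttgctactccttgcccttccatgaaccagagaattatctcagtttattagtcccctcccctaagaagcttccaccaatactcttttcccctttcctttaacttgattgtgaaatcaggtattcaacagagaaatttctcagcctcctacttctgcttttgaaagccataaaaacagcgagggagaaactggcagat
IL1A: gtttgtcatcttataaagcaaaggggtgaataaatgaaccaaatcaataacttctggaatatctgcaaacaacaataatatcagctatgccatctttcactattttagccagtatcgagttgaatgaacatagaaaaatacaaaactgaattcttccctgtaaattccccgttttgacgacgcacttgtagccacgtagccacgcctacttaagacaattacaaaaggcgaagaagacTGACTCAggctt
IL11: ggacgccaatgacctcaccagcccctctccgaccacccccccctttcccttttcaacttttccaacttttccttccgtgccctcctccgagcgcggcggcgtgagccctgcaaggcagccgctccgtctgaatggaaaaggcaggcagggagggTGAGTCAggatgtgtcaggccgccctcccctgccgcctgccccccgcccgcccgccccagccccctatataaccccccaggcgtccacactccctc
The IL6 window is chr7:22726950-22727199 on the plus strand, with the C/EBP match at -155 to -148 and the NF-kB match at -73 to -64 from the start site. The other windows lie on the minus strand. The IL1B window is chr2:112836780-112837029, with a C/EBP match at -215 to -208. The IL1A window is chr2:112784494-112784743, with an AP-1 match at -12 to -6, and the IL11 window is chr19:55370464-55370713, with an AP-1 match at -96 to -90. Among 34788 RefSeq windows of this length, the strict NF-kB letters occurred in 1.27%, the AP-1 letters in 6.59% and the C/EBP letters in 9.05%. A looser NF-kB pattern (GGG, any 5 bases, CC, which includes the strict one) occurred in 54.4% of windows and was therefore not marked. A match is a description of these letters, and binding was not measured.

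In GENCODE v44 (hg38), IL1A (chr2:112773925-112784493), IL1B (chr2:112829751-112836816) and IL1RN (chr2:113099315-113134016) lie near each other on chromosome 2, and IL1R1 (chr2:102064544-102179874) lies on the same chromosome. IL33 is at chr9:6215786-6257983, IL18 at chr11:112143253-112164096, IL6 at chr7:22725884-22732002, IL6ST at chr5:55935095-55995022, IL11 at chr19:55364382-55370463 and LIF at chr22:30240453-30246759. All values are reads per gene, so they cover every exon of a gene together. The strand setting of the counting is not given in the sources used here. Exons of IL6ST share 797 bases with the gene ENSG00000262211 on the opposite strand. Those of IL6 share 428 with IL6-AS1 and 46 with STEAP1B, those of LIF 86 with LIF-AS1 and 83 with LIF-AS2, and those of IL1R1 11 with IL1R1-AS1, all on the opposite strand, so reads of these pairs may not be separated.

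Reads recovered in the listed genes came to 12892442 to 21822152 per library. The siRNAs left 8.47 to 22.3% of the mean normalised read count of their targets, over all knockdowns and both controls. All 9 fibroblast markers had a mean of at least 10 in every group, and their summed level per library was 450387 to 861489. Of 7 leukocyte and macrophage markers, 1 to 3 per group had a mean of at least 10, with CD68 at 650.2 to 1588, CD14 at up to 38.0 and CSF1R at up to 36.7, while PTPRC stayed at or below 8.9 and CD3E was at 0 in 17 of 21 libraries. That list's summed level was 663 to 698 in proliferating cells, 908 to 1021 with NT3, 1300.4 to 1463 with NT4 and 896 to 1628 in the knockdowns. Epithelial, endothelial and smooth muscle lists also held abundant genes (KRT8 262 to 412, TEK 1756 to 4484 and CNN1 1102 to 3122), while KRT5, CDH5 and MYH11 were at 0 in 19, 13 and 14 libraries. The smooth muscle sum was 10332 to 10631 in proliferating cells, 4226 to 5905 with NT3 and 5391 to 6268 with NT4. It was 10070 to 10725 after CCND1, 4584 to 4984 after CDK4, 10405 to 10982 after CDK6 and 7526 to 8481 after dual knockdown. The endothelial sum was 1763 to 1888 in proliferating cells, 2592 to 3717 with NT3 and 2058 to 2435 with NT4. It was 2888 to 3283, 2220 to 2512, 4092 to 4509 and 3441 to 3694 in these knockdowns. The part of these differences in the results below was not tested. NT3 replicate 3 stood apart from its group (SD of its log2 deviations 0.344, against 0.193 to 0.256 in the other libraries), and calls that rest on it are named. Nothing in the labels says that replicates were separate cultures, so p-values measure the spread between these libraries, which may be technical.

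IL1A and IL1B were nearly silent in proliferating cells and among the most induced members in senescent cells. IL1A had normalised read counts of 0.873, 2.13 and 5.31 in the proliferating libraries, from 9 reads in all, against 222, 265 and 241 with NT3 and 74.6, 140.1 and 129 with NT4. IL1B had 8.73, 14.9 and 17.7 in proliferating cells, 542, 638 and 774 with NT3 and 177, 299 and 237 with NT4. For either gene, every NT3 library lay above every NT4 library, and every NT4 library far above proliferating cells. Mean IL1B was 47.3-fold higher with NT3 and 17.2-fold higher with NT4 than in proliferating cells. On the log2(value + 1) scale used for all tests, IL1A rose by 6.19 (SE 0.40, limma adjusted p = 9.79e-12) with NT3 and by 5.06 (SE 0.40, limma adjusted p = 3.4e-10) with NT4. IL1B rose by 5.50 (SE 0.26, limma adjusted p = 9.07e-14) and 4.03 (SE 0.26, limma adjusted p = 1.77e-11). In such bulk libraries, fewer cells making a transcript and less transcript per cell cannot be told apart.

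The knockdown libraries filled in the range between these extremes. IL1A stood at 152, 151 and 162 after CDK4 knockdown and at 56.4, 33.1 and 104.04 after CCND1 knockdown. It stood at 19.3, 20.5 and 15.3 after CDK6 knockdown and at 22.1, 14.2 and 8.01 after dual knockdown. The CDK6 and dual knockdown libraries did not overlap those of any other irradiated group. IL1B followed the same order of group means, with 385, 313 and 382 after CDK4 knockdown, 156, 173 and 275 after CCND1 knockdown, 28.5, 53.1 and 31.6 after CDK6 knockdown and 26.5, 18.6 and 27.0 after dual knockdown. For either gene NT4 and CCND1 knockdown were neighbours in the order and overlapped.

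IL1RN, the antagonist of the same receptor, was near the detection limit. It had no read in proliferating cells and 11.4, 4.26 and 15.8 normalised counts (30 reads in all) with NT3, but only 4 reads with NT4 and 3 to 5 reads in each knockdown group. Set against a floor of 3 reads over the proliferating group, it was at least 11.2-fold higher with NT3. With no filter on low values, limma gave a difference of -2.38 for NT4 against NT3 (adjusted p = 0.009). Its signal was thus mostly that of the NT3 libraries.

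IL33, a nuclear alarmin, and IL18, which is activated by caspase cleavage, were rare transcripts throughout. IL33 had no read in the 3 proliferating libraries. It reached 13.5, 7.80 and 13.3 with NT3 and 4.45, 13.6 and 21.2 with NT4, at least 12.4-fold and 14.01-fold above the floor of 3 reads over the proliferating group. After dual knockdown it stood at 3.31, 3.28 and 5.01, from 11 reads in all, and after CDK6 knockdown at 6.11, 4.66 and 5.75, from 17 reads. IL18 was at 11.4, 7.45 and 8.86 in proliferating cells, 19.7, 22.7 and 34.0 with NT3 and 12.2, 15.6 and 10.6 with NT4. The NT3 libraries lay above the proliferating ones and the NT4 libraries overlapped them. IL18 in the knockdowns ranged from 5.46 to 22.0, and CCND1 knockdown was the only one of them whose libraries lay above all proliferating ones.

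IL1R1, the signalling receptor for both IL1 cytokines, varied far less than its ligands. Its normalised read count was 1266, 1232 and 1208 in proliferating cells, 1799, 1882 and 1438 with NT3, and 2046, 2043 and 2102 with NT4. The group means after knockdown were 1981 ± 132 (SD, n = 3) for CCND1, 1923 ± 144 for CDK4, 1642 ± 86.0 for CDK6 and 1647 ± 201 for dual knockdown. All 18 irradiated libraries lay above the 3 proliferating ones. The rise was 0.46 (SE 0.09, limma adjusted p = 0.000135) with NT3 and 0.74 (SE 0.09, limma adjusted p = 3.11e-07) with NT4.

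IL6, the classical secreted cytokine of senescent fibroblasts, was present in proliferating cells and higher with either control. Its normalised read count was 80.4, 53.2 and 91.2 in proliferating cells, 1824, 1919 and 2993 with NT3 and 408, 682 and 451 with NT4. The mean was 30.0-fold higher with NT3 and 6.86-fold higher with NT4. The log2 rise was 4.88 (SE 0.27, limma adjusted p = 6.85e-13) with NT3 and 2.76 (SE 0.27, limma adjusted p = 9.8e-09) with NT4. IL6 stood at 452, 476 and 953 after CCND1 knockdown, at 973, 657 and 973 after CDK4 knockdown, at 268, 347 and 209.8 after CDK6 knockdown and at 229.6, 259.9 and 219 after dual knockdown. The order of group means was NT3, CDK4 knockdown, CCND1 knockdown, NT4, CDK6 knockdown, dual knockdown and proliferating cells. In that order CDK4 and CCND1 knockdown overlapped, as did CCND1 knockdown and NT4, and CDK6 and dual knockdown.

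IL11, a fibroblast cytokine of the same family linked to matrix production, behaved differently in that it was already high in proliferating cells. It was at 1063, 1101 and 1057 in proliferating cells, 1287, 1319.5 and 1683 with NT3 and 649, 945 and 783 with NT4. The NT3 libraries lay above and the NT4 libraries below the proliferating ones, so its direction depended on the control siRNA. The difference was 0.40 (SE 0.11, limma adjusted p = 0.00297) with NT3 and -0.45 (SE 0.11, limma adjusted p = 0.00116) with NT4. IL11 was at 1179, 1056 and 1071 after CDK4 knockdown, 713, 695 and 806 after CCND1 knockdown, 520.1, 610.3 and 538 after CDK6 knockdown, and 496, 529.6 and 521 after dual knockdown. In the last 3 of these groups, each library lay below all proliferating libraries.

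LIF, which signals through LIFR and gp130, was induced in all irradiated groups. It was at 832, 848 and 814 in proliferating cells, 3112, 3869 and 3281 with NT3 and 2122, 3376 and 2359 with NT4. Knockdown group means were 2856 ± 916 (SD, n = 3) for CCND1, 3002 ± 467 for CDK4, 2053 ± 339.9 for CDK6 and 2007 ± 308 for dual knockdown. The irradiated groups that were neighbours in the order of means all overlapped, and none overlapped proliferating cells. The rise was 2.03 (SE 0.18, limma adjusted p = 2.54e-09) with NT3 and 1.63 (SE 0.18, limma adjusted p = 1.01e-07) with NT4. The library numbers in the table's header form 3 runs of 6 with 1 library of each irradiated group. The highest LIF library of all 6 irradiated groups was in the run with the highest numbers. That run also held the highest IL6 and IL11 library of every irradiated group but NT3, for IL6 in CDK4 knockdown by very little. It held the highest IL1A library of all but CDK4 and dual knockdown, and the highest IL1B library of all but NT3 and dual knockdown. For IL33 it held the highest library of no irradiated group.

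IL6ST, the gp130 chain shared by these cytokines, was the most even of the 4. It was at 10647, 11101 and 11582 in proliferating cells, 19232, 21706 and 13977 with NT3 and 14570.3, 15259 and 15916 with NT4. The low NT3 value is that of replicate 3, below all NT4 libraries. Knockdown means were 17976 ± 492 (SD, n = 3) for CCND1, 16748 ± 1568 for CDK4, 14452 ± 325 for CDK6 and 14587 ± 456 for dual knockdown. IL6ST rose by 0.70 (SE 0.10, limma adjusted p = 3.65e-06) with NT3 and by 0.46 (SE 0.10, limma adjusted p = 0.000555) with NT4.

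**Figure D1:**
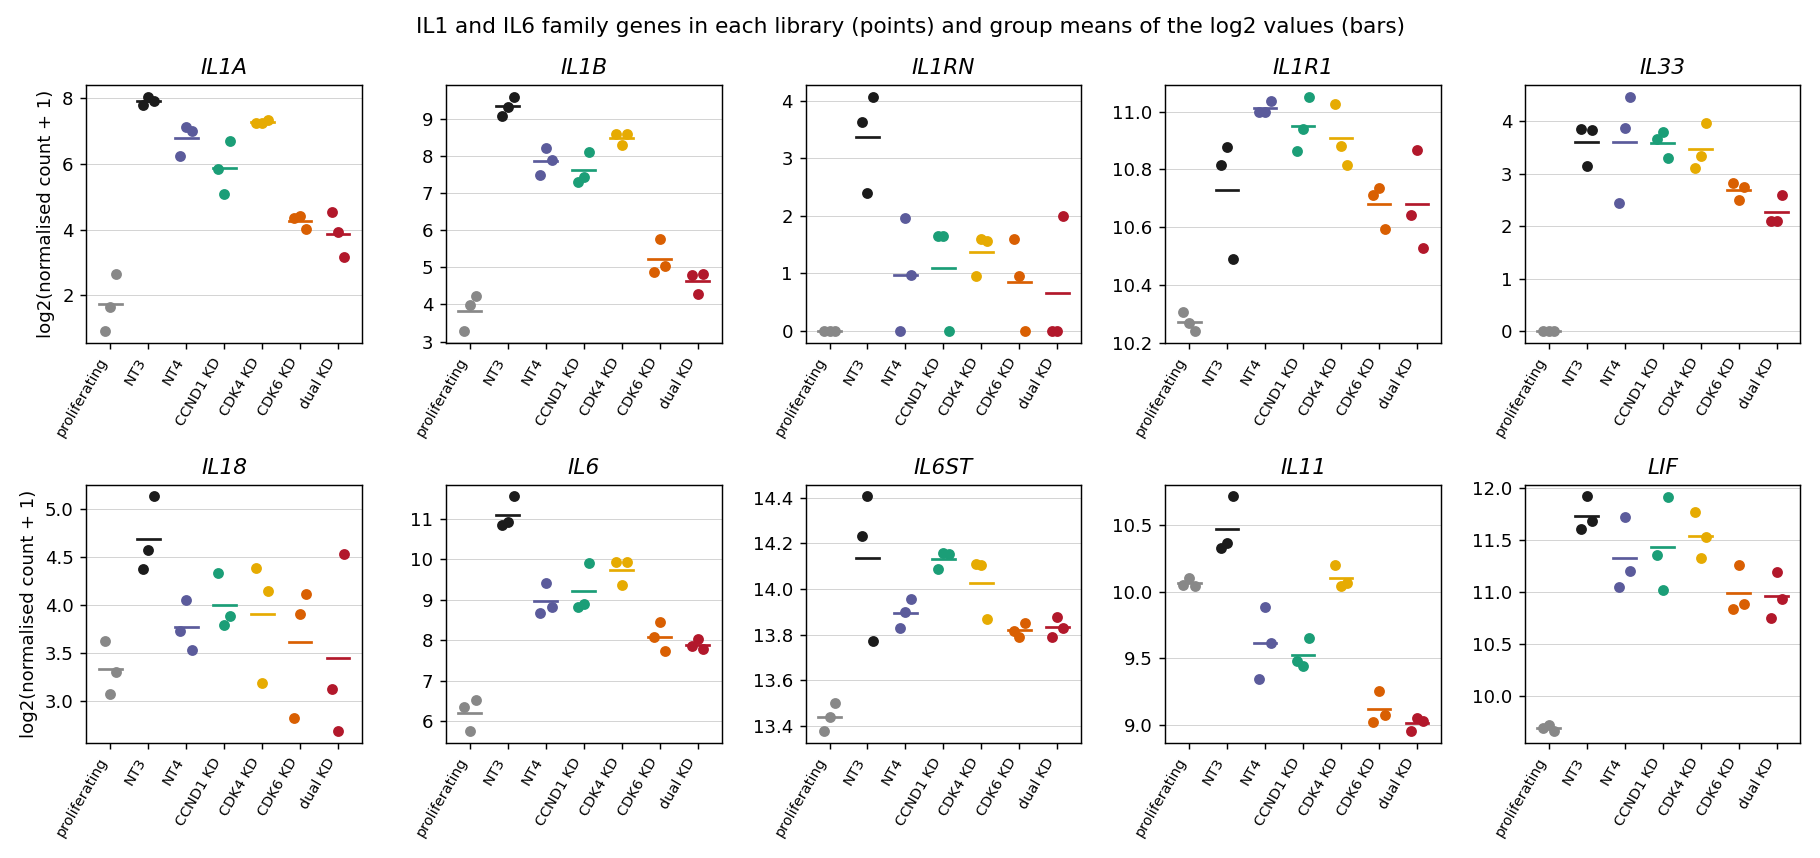
Each panel plots 1 member, with log2(normalised count + 1) of each library as a point and the group mean of the log2 values as a bar, and each panel has its own vertical scale. IL1A, IL1B and IL6 fall in the order NT3, CDK4 knockdown, then CDK6 and dual knockdown near the bottom of the irradiated groups, while IL1R1 and IL6ST span narrow ranges in which the proliferating libraries are lowest.

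Set against proliferating cells, 9 of 9 tested members were higher with NT3, IL1A and IL33 among them with the filter limit given above. Of all 11579 tested genes, 67% passed the limma threshold in this comparison and 31.8% were higher. With NT4, 7 members were higher, IL11 was lower and IL18 missed it at 0.43 (SE 0.44, limma adjusted p = 0.399), while 63.3% of all genes passed, 30.1% higher and 33.2% lower. Centring each library on its median added 0.12 and 0.11 to every difference of these comparisons. It raised the higher share of all calls from 47.4 to 57.6% with NT3 and from 47.5 to 58.2% with NT4, and it turned no member's direction. The IL18 rise with NT3 was lost under quantile normalisation (0.56, limma adjusted p = 0.294).

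The non-targeting controls differed from each other, and the members were part of that difference. With NT4 in place of NT3, IL6 was at 22.9% of its NT3 mean (log2 difference -2.12, SE 0.27, limma adjusted p = 4.38e-06), IL1B at 36.5% (-1.47, SE 0.26, limma adjusted p = 0.000289), IL1A at 47.2% (-1.13, SE 0.40, limma adjusted p = 0.0396) and IL11 at 55.4% (-0.86, SE 0.11, limma adjusted p = 5.83e-06). IL1R1 was the only member higher with NT4 (0.28, SE 0.09, limma adjusted p = 0.0227). In all, 4 of 9 members were lower and 1 was higher, while 27.8% of all genes passed, 13.1% lower and 14.7% higher. The IL1A call was lost under 7 of 15 alternatives (range -1.30 to -0.84), among them the omission of any NT3 replicate, of NT4 replicate 3 or of NT4 replicate 1 (-0.84, limma adjusted p = 0.184). IL1R1 was lost without NT4 replicate 1 or 3 or NT3 replicate 3 (0.16, limma adjusted p = 0.117), IL6ST, at -0.24 here, passed without NT3 replicate 3 (-0.42, limma adjusted p = 9.99e-06), and LIF, at -0.41, passed without NT4 replicate 2 (-0.61, limma adjusted p = 0.0223) or with the block for runs (limma adjusted p = 0.00524). With only the compared groups fitted, the IL1R1 call was lost too (limma adjusted p = 0.154).

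CDK6 knockdown left the IL1 cytokines, IL6 and IL11 lower than either control. IL1B was at 5.79% of NT3 (log2 difference -4.11, SE 0.26, limma adjusted p = 9.97e-11) and at 15.9% of NT4 (-2.64, SE 0.26, limma adjusted p = 1.44e-07). IL1A was at 7.58% of NT3 (-3.66, SE 0.40, limma adjusted p = 2.23e-07) and at 16.1% of NT4 (-2.53, SE 0.40, limma adjusted p = 4.86e-05). Both cytokines stayed above proliferating cells, whose means were 13.8 ± 4.59 for IL1B and 2.77 ± 2.29 for IL1A (SD, n = 3). IL6 was at 12.2% of NT3 (-3.02, SE 0.27, limma adjusted p = 1.2e-08) and at 53.5% of NT4 (-0.89, SE 0.27, limma adjusted p = 0.0141). IL11 was at 38.9% of NT3 (-1.35, SE 0.11, limma adjusted p = 3.57e-09) and at 70.2% of NT4 (-0.50, SE 0.11, limma adjusted p = 0.00159). The sizes against the 2 controls differ because the controls differ, and they share the same CDK6 knockdown libraries.

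Against NT3, 7 of 9 members were lower after CDK6 knockdown, all but IL1R1 and IL33, where 46.3% of all genes passed and 23.4% were lower. LIF was among them (-0.74, SE 0.18, limma adjusted p = 0.00234), as were IL6ST (-0.32, SE 0.10, limma adjusted p = 0.0151) and IL18 (-1.07, SE 0.44, limma adjusted p = 0.0495). Against NT4, 5 of 9 were lower, where 30.6% of all genes passed and 15.4% were lower. IL1R1 joined the cytokines there (-0.33, SE 0.09, limma adjusted p = 0.00775), and LIF had a difference of -0.33 (95% interval -0.72 to 0.05). The IL18 call was lost under 11 of 15 alternatives, among them the omission of NT3 replicate 2 or 3 or CDK6 knockdown replicate 1 or 2, and IL6ST against NT3 was lost without NT3 replicate 1 (-0.27, limma adjusted p = 0.06) or NT3 replicate 2 (-0.18, limma adjusted p = 0.11). With only the compared groups fitted, the IL6ST call was lost too (limma adjusted p = 0.154). IL6 against NT4 was lost without NT4 replicate 2 (-0.67, limma adjusted p = 0.0947) or CDK6 knockdown replicate 3 (-0.72, limma adjusted p = 0.0848), and IL33, at -0.90, passed against NT4 without NT4 replicate 1 (-1.48, limma adjusted p = 0.0174).

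Dual knockdown gave the lowest levels of most members among irradiated groups. IL1B was at 3.69% of NT3 (-4.71, SE 0.26, limma adjusted p = 9.5e-12) and at 10.1% of NT4 (-3.24, SE 0.26, limma adjusted p = 4.34e-09). IL1A was at 6.08% and 12.9% (limma adjusted p = 4.1e-08 and 5.7e-06). IL6 was at 10.5% of NT3 (-3.21, SE 0.27, limma adjusted p = 3.52e-09) and at 46.0% of NT4 (-1.08, SE 0.27, limma adjusted p = 0.00304). IL11 was at 36.0% and 65.0% (limma adjusted p = 7.84e-10 and 0.000192). LIF passed against NT3 (-0.77, SE 0.18, limma adjusted p = 0.00166), with -0.37 (95% interval -0.75 to 0.01) against NT4. With the run of library numbers as a block LIF passed against NT4 too (limma adjusted p = 0.00731), and it passed likewise in CDK6 knockdown against NT4 (-0.33, limma adjusted p = 0.0151). In all 8 of 9 members were lower against NT3, all but IL1R1, where 44.6% of all genes passed and 21.9% were lower. Against NT4, 6 of 9 were lower (IL1A, IL1B, IL1R1, IL33, IL6 and IL11), where 36.7% passed and 18.3% were lower. IL33 was at most 5.01 in a dual knockdown library, below the filter's 10, so its calls here were partly fixed by the filter. The IL33 calls were lost without NT3 replicate 1 (-1.23, limma adjusted p = 0.072), NT3 replicate 3, NT4 replicate 2, NT4 replicate 3 (-0.89, limma adjusted p = 0.184), or dual knockdown replicate 1 or 2. The IL18 call was lost without NT3 replicate 3 or dual knockdown replicate 1 or 2 (-0.86, limma adjusted p = 0.145), that of IL6ST without NT3 replicate 1 or 2 or dual knockdown replicate 1, and that of IL1R1 without dual knockdown replicate 3 (-0.26, limma adjusted p = 0.05). With only the compared groups fitted, IL18 (limma adjusted p = 0.096), IL6ST (limma adjusted p = 0.175) and IL33 (limma adjusted p = 0.0589) were lost against NT3. IL33 was lost against NT4 as well (limma adjusted p = 0.0732).

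Adding CDK4 siRNA to CDK6 siRNA changed no member past the threshold. CDK6 itself was left at 15.3% of NT3 and 17.8% of NT4 in CDK6 knockdown, and at 19.1% and 22.3% in dual knockdown. The part of this in the comparison was not tested. In dual against CDK6 knockdown 0 of 9 members passed by limma at an adjusted p of 0.05, 1 (IL1B) at an unadjusted p of 0.05, and 0 by edgeR or DESeq2, where 13% of all genes passed by limma. IL1B differed by -0.60 (95% interval -1.15 to -0.05, limma adjusted p = 0.151), and it was the 1 member whose libraries did not overlap, where those of 36.2% of all genes did not. IL6 differed by -0.19 (95% interval -0.75 to 0.37) and IL1A by -0.39 (95% interval -1.22 to 0.44).

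CDK4 knockdown alone gave the mildest shift against NT3, and for IL11 the direction of the call depended on the control. Against NT3, IL6 was at 38.6% (-1.36, SE 0.27, limma adjusted p = 0.00075), IL1B at 55.3% (-0.84, SE 0.26, limma adjusted p = 0.0227) and IL11 at 77.0% (-0.37, SE 0.11, limma adjusted p = 0.0181). These were the 3 of 9 members past the threshold, where 25.6% of all genes passed and 12.2% were lower. Against NT4, IL11 was higher (0.49, SE 0.11, limma adjusted p = 0.00484) and was the 1 member of 9 past the threshold, where 11.6% of all genes passed and 5.66% were higher. IL6 stood 0.77 above NT4 (95% interval 0.21 to 1.32, limma adjusted p = 0.0684) and IL1B 0.62 above it (95% interval 0.07 to 1.17, limma adjusted p = 0.145). The IL1B fall against NT3 was lost without NT3 replicate 3 (-0.71, limma adjusted p = 0.061) or CDK4 knockdown replicate 2 (-0.75, limma adjusted p = 0.0946). That of IL11 was lost without NT3 replicate 3 (-0.24, limma adjusted p = 0.0779) or CDK4 knockdown replicate 2 or 3. With only the compared groups fitted, the IL11 fall was lost too (limma adjusted p = 0.1). Without NT3 replicate 3 IL6ST passed against NT3 (-0.29, limma adjusted p = 0.000937), and without NT3 replicate 2 IL1R1 did (0.25, limma adjusted p = 0.041). IL6 passed against NT4 without NT4 replicate 2 (0.99, limma adjusted p = 0.0338) or with the block for runs (limma adjusted p = 0.0362). Fitting only the compared groups, IL6 (limma adjusted p = 0.00562) and IL1B (limma adjusted p = 0.0107) passed against NT4. IL1A passed against NT3 in that setting (limma adjusted p = 0.0173).

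CCND1 knockdown lowered 4 of 9 members against NT3 and none past the threshold against NT4. Against NT3, IL1A was at 26.6% (-2.04, SE 0.40, limma adjusted p = 0.000402), IL6 at 27.9% (-1.89, SE 0.27, limma adjusted p = 1.25e-05), IL1B at 30.9% (-1.72, SE 0.26, limma adjusted p = 3.3e-05) and IL11 at 51.6% (-0.95, SE 0.11, limma adjusted p = 1.1e-06). In that comparison 38.2% of all genes passed and 18.3% were lower. Against NT4, 0 of 9 members passed by limma or by edgeR, 1 by DESeq2 (IL1A) and 2 at an unadjusted limma p of 0.05, where 19.3% of all genes passed by limma. IL1A differed by -0.92 (95% interval -1.75 to -0.09, limma adjusted p = 0.116) and IL6 by 0.23 (95% interval -0.32 to 0.79). CCND1 knockdown replicate 3 had the highest IL1A and IL6 values of its group and lies in the run with the highest library numbers. Without this library, IL1A passed against NT4 (-1.33, limma adjusted p = 0.0323) and LIF against NT3 (-0.54, limma adjusted p = 0.0204). LIF also passed against NT3 with the block for runs (-0.30, limma adjusted p = 0.022). Against NT3, IL6ST passed without NT3 replicate 3 (-0.19, limma adjusted p = 0.022) and IL1R1 without NT3 replicate 1, CCND1 knockdown replicate 1 or NT3 replicate 2 (0.30, limma adjusted p = 0.0138).

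**Figure D2:**
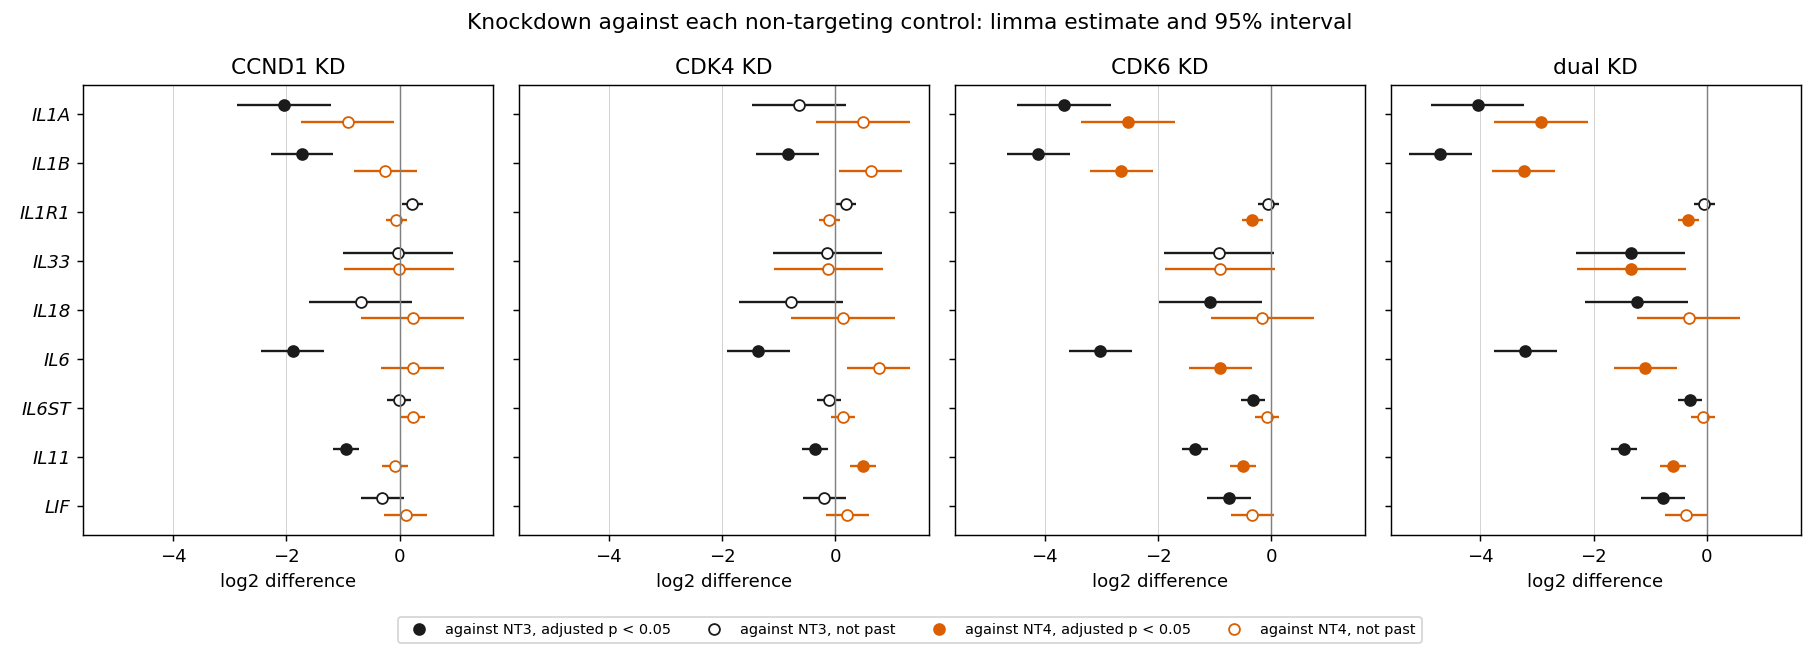
Each point is the limma log2 difference of a knockdown from NT3 (black) or NT4 (orange) for the 9 tested members, lines are 95% intervals, and filled points have an adjusted p under 0.05. After CDK6 or dual knockdown IL1A and IL1B lie between -4.71 and -2.53 against either control, while against NT4 the only filled point after CDK4 or CCND1 knockdown is IL11 in CDK4 knockdown.

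Comparisons between knockdowns need neither control. CDK6 against CDK4 knockdown, which share no library, had 5 of 9 members lower, where 34.8% of all genes passed and 17.3% were lower. IL1B was at 10.5% of its CDK4 knockdown level (-3.27, SE 0.26, limma adjusted p = 4.43e-09), IL1A at 11.8% (-3.02, SE 0.40, limma adjusted p = 3.82e-06), IL6 at 31.7% (-1.66, SE 0.27, limma adjusted p = 4.45e-05), IL11 at 50.5% (-0.99, SE 0.11, limma adjusted p = 4.45e-07) and LIF at 68.4% (-0.55, SE 0.18, limma adjusted p = 0.0236). The libraries of these 5 and 3 other members did not overlap, against 51.7% of all genes. The LIF call was lost without CDK4 knockdown replicate 1 (-0.43, limma adjusted p = 0.117) or 3, or CDK6 knockdown replicate 1 or 3, and the other 4 calls were kept under all alternatives tried. IL1R1, at -0.23, passed without CDK4 knockdown replicate 3 (-0.27, limma adjusted p = 0.0468).

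CCND1 knockdown left higher levels than CDK6 knockdown, with 5 of 9 members higher, where 12.2% of all genes passed and 6.78% were higher. IL1B was 5.33-fold higher (2.39, SE 0.26, limma adjusted p = 2.3e-06), IL1A 3.51-fold (1.62, SE 0.40, limma adjusted p = 0.00912), IL6 2.28-fold (1.13, SE 0.27, limma adjusted p = 0.00672), IL11 1.33-fold (0.41, SE 0.11, limma adjusted p = 0.0174) and IL6ST 1.24-fold (0.31, SE 0.10, limma adjusted p = 0.0484). Without CCND1 knockdown replicate 3, IL1B was the 1 member past the threshold, with IL1A at 1.20 (limma adjusted p = 0.0775) and IL6 at 0.78 (limma adjusted p = 0.0632). Leaving out CDK6 knockdown replicate 1 left 3 members past the threshold and leaving out its replicate 3 left 2, and without CCND1 knockdown replicate 2 LIF passed (0.65, limma adjusted p = 0.032), as it did with the block for runs (0.44, limma adjusted p = 0.00645). The IL6ST call was lost without any 1 of the 6 libraries (0.30 to 0.34).

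The effect of CDK4 siRNA with CDK6 siRNA present was also set against its effect without it. With NT3 as control, IL6 had a difference of effects of 1.17 (SE 0.38, limma adjusted p = 0.0388), the 1 member of 9 past the threshold, where 16.4% of all genes passed. With NT4 as control, the same quantity for IL6 was -0.96 (SE 0.38, limma adjusted p = 0.188). IL11 passed with NT4 (-0.60, SE 0.16, limma adjusted p = 0.0316), where 3.93% of all genes passed, and was at 0.26 (SE 0.16, limma adjusted p = 0.259) with NT3. The sign of the estimate for either cytokine thus turned with the control. The 2 estimates of a gene differ only in the control libraries used. They therefore stand apart by its difference between NT4 and NT3 (-2.12 for IL6 and -0.86 for IL11). Without NT3 replicate 3, IL6ST also passed with NT3 (0.30, limma adjusted p = 0.0115).

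The genes that carry IL1 and IL6 signals were examined as lists, with the members themselves left out. Of 21 tested genes of the IL1 pathway (receptors, adaptors, kinases, inflammasome and processing enzymes), 8 were higher and 8 lower with NT3 than in proliferating cells, with a median of -0.09. Of all genes 67% passed there and 31.8% were higher. IRAK2, a kinase of the IL1 receptor complex that NF-kB also induces, rose by 2.14 (SE 0.09, limma adjusted p = 1.49e-14) with NT3. Its mean was 213 ± 19.2 (SD, n = 3) in proliferating cells, 940.5 ± 75.8 with NT3, 693 ± 69.9 with NT4, 747 ± 44.8 after CDK4 knockdown, 642 ± 35.2 after CCND1 knockdown, 421 ± 35.0 after CDK6 knockdown and 387 ± 28.7 after dual knockdown. IL1RL1, the receptor for IL33, went from 12.2 ± 5.27 to 45.2 ± 4.63 with NT3 and 49.3 ± 7.29 with NT4. It was at 63.4 ± 19.8 after CDK4 knockdown, 25.7 ± 10.3 after CCND1 knockdown, 19.1 ± 6.23 after CDK6 knockdown and 12.3 ± 3.05 after dual knockdown. Against NT4, CDK6 knockdown lowered 3 of 21 (IL1RL1 -1.36, IRAK2 -0.71, IRAK1 -0.34) and raised 0, where 15.4% of all genes were lower. Dual knockdown lowered 7 and raised 2, where 18.3% of all genes were lower. IL1RAP, the co-receptor of IL1R1, was among the 2 raised (0.91, SE 0.14, limma adjusted p = 3.55e-05). Its mean was 220.6 ± 30.2 (SD, n = 3) with NT4, 415 ± 41.3 after dual knockdown and 408 ± 109.4 with NT3, and against NT3 the difference was 0.06 (limma adjusted p = 0.756). The decoy receptor IL1R2 and the inflammasome sensor NLRP3 did not pass the filter.

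Of 21 tested genes of the IL6 pathway, 10 were higher and 7 lower with NT3 than in proliferating cells, with a median of -0.06. Of all genes 67% passed there and 31.8% were higher. EBI3, a subunit shared by related cytokines, rose by 3.25 (SE 0.28, limma adjusted p = 1.11e-09), and it too had no proliferating library at the filter's 10. IL11RA, the receptor of IL11, was low with NT4 alone, at 80.5 ± 23.1 (SD, n = 3), against 184 ± 31.8 with NT3, 203 ± 28.0 in proliferating cells and means of 179.5 to 239 in the knockdowns. Its difference was -1.20 (SE 0.16, limma adjusted p = 9.89e-06) for NT4 against NT3, and its rises against NT4 after CDK6 (1.52) and dual knockdown (1.59) stand beside no call against NT3 (0.31 and 0.39). Against NT4, CDK6 knockdown lowered 5 of 21 genes and raised 1, where 15.4% of all genes were lower. Dual knockdown lowered 5 and raised 3, where 18.3% of all genes were lower. SOCS3, the feedback inhibitor induced by STAT3, was lower after CDK6 knockdown (-0.70, SE 0.20, limma adjusted p = 0.012). The ligands OSM and CNTF did not pass the filter.

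Target genes of the NF-kB pathway moved most. Of the 23 listed NF-kB and IL1 response genes, 9 had no proliferating library at the filter's 10, so their rise was partly fixed by the filter (BCL2A1, CCL20, CSF2, CSF3, CXCL1, CXCL2, CXCL3, CXCL5 and CXCL6). The other 14 were higher than in proliferating cells with NT3 (0.86 to 6.98) and with NT4 (0.40 to 5.38), as were the 9. NT4 against NT3 had 19 lower and none higher (median -0.76). After CDK6 knockdown 23 were lower against NT3 (median -2.44) and 20 against NT4 (median -1.69), and after dual knockdown 23 (median -3.04) and 22 (median -1.77). CXCL8, a neutrophil chemokine, had a mean of 44.6 ± 4.14 (SD, n = 3) in proliferating cells, 5763 ± 799.9 with NT3, 1941 ± 556 with NT4, 3324 ± 535 after CDK4 knockdown, 1452 ± 708 after CCND1 knockdown, 409 ± 227 after CDK6 knockdown and 296 ± 82.8 after dual knockdown. CDK4 knockdown lowered 7 against NT3 (median -0.70) and raised 3 against NT4 (ICAM1, TNFAIP2 and TNIP1, median 0.40). CCND1 knockdown lowered 21 against NT3 (median -1.81), and against NT4 lowered 5 and raised 2 (median -0.42). Medians of all tested genes were between -0.03 and 0.01 in every comparison, and percentages of all genes past the threshold are those given for the members.

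STAT3 response genes showed no such common direction between either control and proliferating cells. Of 12 tested, 7 were higher and 2 lower with NT3 than in proliferating cells (median 0.38), and 5 were higher and 3 lower with NT4 (median 0.06). Of all genes, 31.8% were higher with NT3, while with NT4 30.1% were higher and 33.2% lower. Against NT4, CDK6 knockdown lowered 6 and raised none (median -0.35), among them VEGFA (-0.73), SOCS3 (-0.70) and JUNB (-0.65). Dual knockdown lowered 7 and raised 1 (median -0.26). Of all genes, 15.4% were lower against NT4 in CDK6 knockdown and 18.3% in dual knockdown. CDK4 knockdown against NT4 lowered none and raised 2 (HIF1A 0.55 and OSMR 0.44), where 5.66% of all genes were higher.

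Regulators of IL1 and IL6 transcription and mRNA decay were the last list, with 24 tested genes, among them factors that bind the motifs printed above. With NT3 against proliferating cells 7 were higher and 11 lower (median -0.14), led by ATF3, a stress-induced factor of the ATF and CREB family (3.02, SE 0.14, limma adjusted p = 6.36e-14), and ZC3H12A, an RNase that degrades IL6 mRNA (2.72). FOS, a subunit of AP-1, rose by 2.04. Of all genes 67% passed in this comparison and 31.8% were higher. Against NT4, where 15.4% and 18.3% of all genes were lower, CDK6 knockdown and dual knockdown each lowered 11 and raised none (medians -0.17 and -0.24). In CDK6 knockdown these included ATF3 (-1.14), the C/EBP gene CEBPB (-0.96) and the AP-1 gene FOSL1 (-0.92), and in dual knockdown ATF3 (-1.44), FOS (-1.14) and CEBPB (-0.86). CCND1 knockdown against NT4 lowered 7 and raised none (median -0.13), with FOS at -0.90 and ATF3 at -0.67, although no member passed there. Of all genes 19.3% passed in that comparison.

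**Figure D3:**
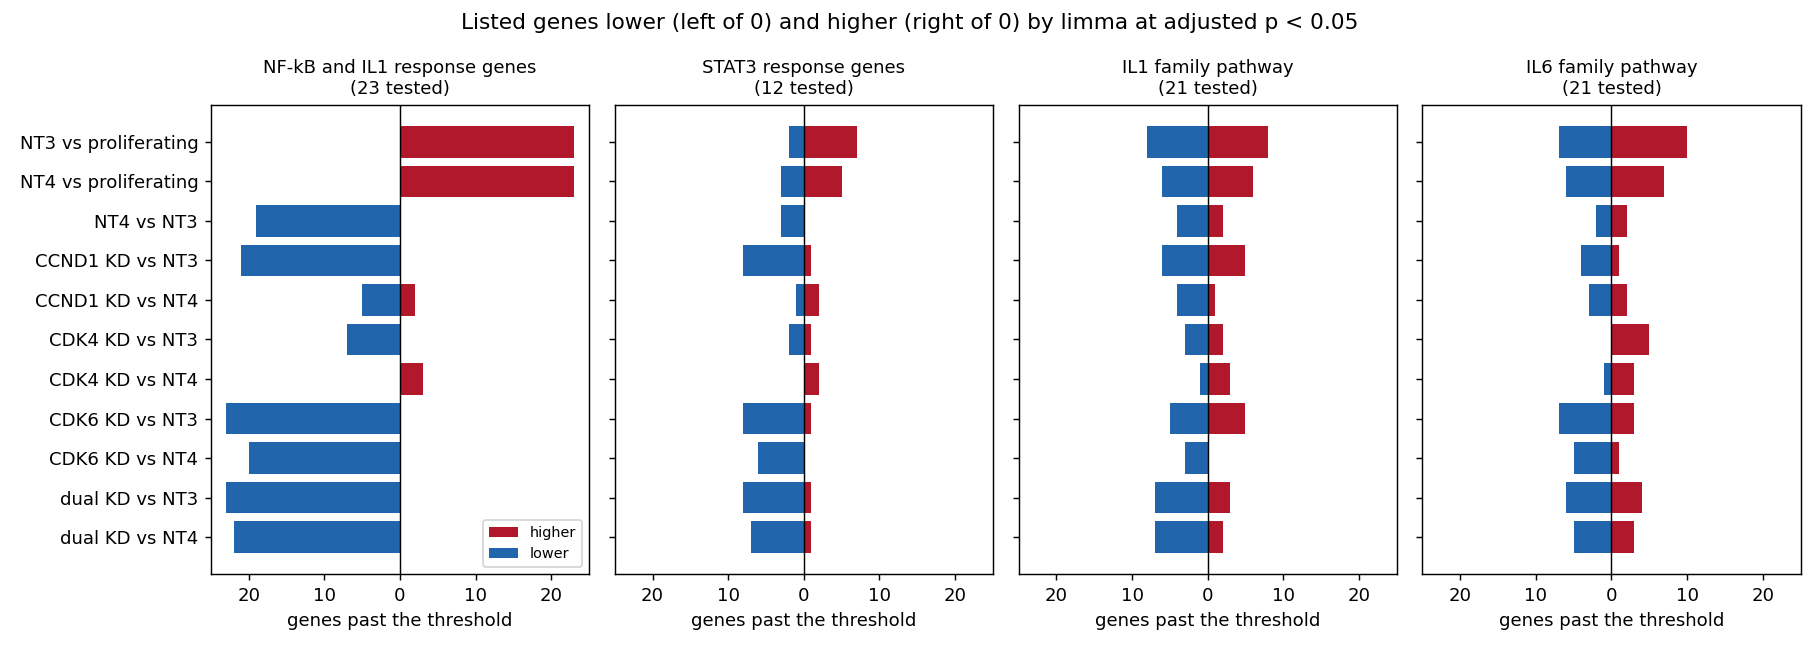
Bars count the genes of each list lower (left of 0) and higher (right of 0) by limma at an adjusted p under 0.05, for 11 comparisons. The NF-kB and IL1 response genes fill the right side in both comparisons with proliferating cells (9 of the 23 with the filter limit given above) and the left side in CDK6 and dual knockdown (20 to 23 of 23), while the IL1 and IL6 pathway lists hold calls on either side in most comparisons.

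Across the 18 irradiated libraries, some members followed each other closely. Pearson's r of log2 values was 0.965 for IL6 with IL11, 0.963 for IL1A with IL1B, 0.916 for IL6 with IL1B, 0.850 for IL6 with LIF, 0.517 for IL6 with IL6ST and 0.164 for IL6 with IL1R1. These describe 18 libraries that share 6 groups, and most of the variation is between groups. Among 9103 genes with a mean of at least 100, the pattern of IL6 was most like those of MAFF (r = 0.984), CXCL1 (0.979), INHBA (0.967), TMEM156 (0.958) and TNIP1 (0.958). That of IL1B was most like IRAK2 (0.980), CXCL8 (0.978) and SERPINB2 (0.970). That of IL11 was most like MSC (0.964), IFI35 (0.961) and CXCL1 (0.960), and that of LIF most like ZC3H12A (0.899), SOD2 (0.871) and C3 (0.871). IL33, from few reads, had its closest matches at lower values, in RNF114 (0.836), SDC1 (0.796) and POLD1 (0.792).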

How the data were processed

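The deposited values, which the file header names normalised counts, are treated as an expression signal. The submitters' processing notes list Trimmomatic 0.38.1, HISAT2 2.2.1, featureCounts 2.0.3 and DESeq2 2.11.40.8 with hg38, without roles or order. Within a library 100% of values were whole multiples of 1 step (tolerance 0.01 read), which gave back the reads used for the totals per library and for count tests. Few reads in a group mean large counting error.

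Groups come from the labels. Columns show the group but not the replicate, so replicates are numbered by column. The filter kept values of 10 or more in 3 or more libraries. limma 3.58.1 (R 4.3.3) was run on log2(value + 1), which understates changes of low genes, with a mean for each of the 7 groups and a trended variance. Two-sided p-values were adjusted by Benjamini-Hochberg over all 11579 tested genes per comparison, at a threshold of 0.05. The scripts were tested on simulated data. Each result was recomputed with a pseudocount of 0.1 or 10, without the filter, on genes with a mean of 100 or more, after median centring or quantile normalisation, with the compared groups alone, with edgeR 4.0.16 and DESeq2 1.42.0 on the recovered reads, and without each library. A block for runs of 6 library numbers in the header was added after seeing the data. The members and gene lists were chosen with earlier results of these data known. The text names all members, up to 4 list genes per comparison with the largest differences past the threshold, and the genes closest to a member by Pearson's r. Outside that rule, IL1RL1, IRAK2, IL11RA and CXCL8 are followed across groups, IL1R2, NLRP3, OSM and CNTF are named as untested, and these were chosen after their values were seen.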

Additional observations from a re-analysis of the deposited data

Results flagged for a closer look

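The effect of CDK4 siRNA on 2 cytokines differed between cells with and without CDK6 siRNA by limma's test of that difference, for each with 1 control only. For IL6 with NT3 as control, the effect of CDK4 siRNA was higher by 1.17 (SE 0.38, limma adjusted p = 0.0388) when CDK6 siRNA was present. IL6 was the 1 member of 9 past the threshold, a smaller share than the 16.4% of all genes that passed. This call was lost with no filter on low values (limma adjusted p = 0.0609), by DESeq2 (adjusted p = 0.0543) and without any of NT3 replicate 3 (0.94), CDK4 knockdown replicate 2 (0.98), CDK6 knockdown replicates 1 (1.16) or 3 (0.99), or dual knockdown replicates 1 (1.19), 2 (1.10) or 3 (1.22).

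For IL11 with NT4 as control, the effect differed by -0.60 (SE 0.16, limma adjusted p = 0.0316) when CDK6 siRNA was present. IL11 was the 1 member of 9 past the threshold there, where 3.93% of all genes passed. Its call was lost without any of NT4 replicates 1 (-0.46) or 3 (-0.60), CDK4 knockdown replicates 1 (-0.55) or 3 (-0.62), CDK6 knockdown replicates 2 (-0.53) or 3 (-0.62), or dual knockdown replicates 1 (-0.57) or 3 (-0.61). With the other control the values had the opposite sign and did not pass, at -0.96 for IL6 and 0.26 for IL11. The 2 values of a gene stand apart by its difference between the controls (-2.12 for IL6 and -0.86 for IL11, NT4 against NT3).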

How the results depend on the processing

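Of 68 member calls over the 16 comparisons, 48 were kept under every alternative run, and of 1066 alternative values of these calls 973 kept the call, 93 lost it and 0 turned direction. Of 1273 alternative values of the 76 results not past the threshold, 48 passed. The number of members past the threshold moved by more than 1.5 times as follows, and the cause was not tested. For CCND1 knockdown against NT4 it went from 0 to 1 with a pseudocount of 10, 1 by DESeq2 and 2 with only the compared groups. For CDK4 knockdown against NT4 it went from 1 to 2 by DESeq2, 3 with only the compared groups and 2 with the block for runs of library numbers. For dual knockdown against NT3 it went from 8 to 5 with a mean of at least 100, where 6 members were tested, and to 5 with only the compared groups. For the difference of CDK4 siRNA effects it went from 1 to 0 with no filter and 0 by DESeq2 with NT3 as control, and from 1 to 2 by DESeq2, 3 with only the compared groups and 2 with the block for runs with NT4 as control. Leaving out each library in turn gave 3 to 6 members for NT4 against NT3, 0 to 1 for CCND1 knockdown against NT4, 1 to 4 for CDK4 knockdown against NT3, 1 to 2 for CDK4 knockdown against NT4, 5 to 8 for dual knockdown against NT3, 1 to 5 for CCND1 against CDK6 knockdown and 0 to 1 for either difference of CDK4 siRNA effects. Where an arm kept 2 libraries, the spread was still shared over all groups. With only the compared groups fitted, so with no spread shared from other groups, 8 member calls were lost and 11 other results passed.

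No paired analysis was possible because the table's columns carry no replicate number that the labels could match. A block for the 3 runs of 6 header library numbers was fitted in its place, although deviations of libraries in the same run correlated at only -0.11 to 0.10 (median 0.04, 45 pairs), and at -0.14 to 0.16 between runs. It added 10 member calls and ended 2 (IL18 in CDK6 knockdown against NT3 and IL6ST in CCND1 against CDK6 knockdown). Of the 10, 5 were of LIF, given with its values. IL1RN, IL33 and IL18 rest on few reads.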
